A study of Mus musculus with 61 samples.

Results

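Genes known from the thalamus and the habenula were followed through the adult mouse brain in 61 tissue fractions, each cut to 1 mm from a whole brain and hybridised to 1 microarray. The set holds 8 genes among 16355 genes that could be named on the array: Tcf7l2, Lef1, Gbx2, Prkcd, Tnnt1, Ramp3, Gpr151 and Synpo2. They were chosen by name. Probes were named through their RefSeq identifier and the probe with the highest mean processed signal was used for each gene, which gave a probe for 7 of the 8; no probe was matched to Synpo2, which codes for an actin-binding protein, and it is not analysed here. Each brain came from an untreated male C57BL/6J mouse of 8 weeks and was sliced in 1 direction only. The straight series C, S and H ran along the coronal (13 fractions, posterior to anterior), sagittal (9 fractions, left to right) and horizontal (6 fractions, dorsal to ventral) planes, and the series Co (16), So (10) and Ho (7) were cut slightly obliquely to them, so that 6 mice were used in all. A fraction pools all tissue of its slab, so a level is that of a whole slice, and fewer cells of a type and less RNA per cell cannot be told apart.

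The thalamus is the group of forebrain nuclei that passes sensory and motor signals on to the cortex, and the habenula is a small pair of nuclei that lies dorsal to it beside the midline and connects the forebrain with midbrain cell groups. Gbx2, a homeobox factor, and Tcf7l2 and Lef1, high mobility group factors that act on DNA with beta-catenin in Wnt signalling, are regulators of this region. Prkcd codes for the delta isoform of protein kinase C, Ramp3 for a single-pass protein that partners receptors of the calcitonin family, Gpr151 for an orphan G protein-coupled receptor known from the habenula, and Tnnt1 for the slow troponin T of muscle, which is also known from thalamic neurons. Slitrk6, a transmembrane protein with a known thalamic pattern, is not in the set and was used to locate the thalamus in each brain.

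Levels are given as log2 of the processed signal minus the log2 of the 75th percentile of the same array, so that 0 is the level of a probe at that percentile and a step of 1 is a 2-fold change. The 75th percentile lay between 737 and 1919 signal units over the arrays, 57.9% to 73.0% of probes were well above background, the median SD between spots of a same probe on an array had a median of 0.0637, and no spot was saturated. No array stood apart, each having an r of at least 0.98 with another over all tested probes. Levels of different probes cannot be set against each other, so only profiles are compared between genes. Tcf7l2, Lef1, Prkcd, Tnnt1 and Ramp3 were well above background on all 61 arrays, Gbx2 on 55 and Gpr151 on 37.

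In the RefSeq annotation of GRCm38.p6, Gbx2 lies on chromosome 1 (89927962 to 89931176, minus strand), Prkcd on chromosome 14 (30595353 to 30626414, minus strand) and Tcf7l2 on chromosome 19 (55741797 to 55933659, plus strand). Lef1 is on chromosome 3 (131110297 to 131224357), Ramp3 on chromosome 11 (6658506 to 6677478) and Tnnt1 on chromosome 7 (4504569 to 4515975). The upstream windows of Gbx2, Prkcd and Tcf7l2 are shown because these genes had the lowest adjusted p of the set in the comparison of thalamic with other fractions. The 250 bases before a transcription start, 5′ to 3′ on the gene's strand and taken from the RefSeq promoter table, were searched on both strands for CTTTGNN in which each N was A or T, the core of the TCF/LEF site. Matches are in capitals.
Gbx2, chr1:89931177-89931426, minus strand: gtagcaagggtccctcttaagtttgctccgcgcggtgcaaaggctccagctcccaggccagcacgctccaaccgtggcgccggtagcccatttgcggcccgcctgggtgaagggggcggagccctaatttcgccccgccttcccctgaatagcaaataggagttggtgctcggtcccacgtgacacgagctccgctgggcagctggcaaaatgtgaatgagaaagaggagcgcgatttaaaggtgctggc
Prkcd upstream start, chr14:30626209-30626458, minus strand: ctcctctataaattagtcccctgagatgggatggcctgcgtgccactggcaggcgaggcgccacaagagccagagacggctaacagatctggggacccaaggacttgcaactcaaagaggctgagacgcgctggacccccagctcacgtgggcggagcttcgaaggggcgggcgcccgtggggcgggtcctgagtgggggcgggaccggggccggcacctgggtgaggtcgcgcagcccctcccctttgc
Prkcd downstream start, chr14:30610311-30610560, minus strand: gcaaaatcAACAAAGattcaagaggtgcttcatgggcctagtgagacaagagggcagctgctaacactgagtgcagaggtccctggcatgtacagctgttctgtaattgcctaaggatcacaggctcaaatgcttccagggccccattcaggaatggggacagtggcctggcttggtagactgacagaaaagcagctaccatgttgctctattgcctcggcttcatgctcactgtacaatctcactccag
Tcf7l2 upstream start, chr19:55741560-55741809, plus strand: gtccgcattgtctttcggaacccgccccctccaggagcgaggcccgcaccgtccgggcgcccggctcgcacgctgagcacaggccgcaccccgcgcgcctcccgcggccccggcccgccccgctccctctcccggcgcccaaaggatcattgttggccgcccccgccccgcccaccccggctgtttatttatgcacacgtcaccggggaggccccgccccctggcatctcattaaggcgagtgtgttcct
Tcf7l2 downstream start, chr19:55895071-55895320, plus strand: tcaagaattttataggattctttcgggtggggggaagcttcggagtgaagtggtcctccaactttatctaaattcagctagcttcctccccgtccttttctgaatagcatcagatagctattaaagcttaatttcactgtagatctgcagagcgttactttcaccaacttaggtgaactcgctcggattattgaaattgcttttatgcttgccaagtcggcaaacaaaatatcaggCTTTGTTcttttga
A match was found at the downstream start of Prkcd, 242 bases before it, and at the downstream start of Tcf7l2, 14 bases before it. Over the set, 3 of 12 windows of 7 genes, Synpo2 included and Gpr151 not, held 1, the other being a downstream start of Lef1, and 14.8% of the 32851 windows in the table did. Windows without a match, that of Gbx2 included, lack only these letters in these 250 bases.

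The question of the design was whether a gene varied over space beyond the difference between brains, and the study paired 28 straight and oblique fractions of like position for this. The pairs had been chosen by the likeness of the same arrays. All 7 genes varied over the 28 pairs in the moderated F test of limma (adjusted p between 7.05e-10 for Tnnt1 and 0.0190 for Lef1), as did 61.1% of the 35969 probes tested. This test also takes in differences between planes, which came from different mice, so a difference between brains can add to a call. The tests within a plane leave those differences out. Along the coronal axis all 7 varied again, where 46.9% of probes did. In the sagittal pairs 4 of 7 varied, Tcf7l2 (adjusted p = 1.91e-07), Gbx2 (5.08e-06), Prkcd (4.04e-05) and Tnnt1 (0.00225), against 11.0% of probes. In the horizontal pairs 5 of 7 varied, Gbx2 (2.45e-07), Prkcd (0.000122), Tcf7l2 (0.00598), Ramp3 (0.00786) and Tnnt1 (0.00837), against 11.9% of probes. Gpr151 did not pass in the sagittal (0.459) or the horizontal pairs (0.0900), though it passed in the horizontal ones with dim values set to the lowest signal well above background (0.00239) and with normexp background correction (0.0100). Lef1 passed in neither plane (1 and 0.592), and Ramp3 did not in the sagittal pairs (0.660). Without fraction 4 of mouse S, which was paired with the highest Gpr151 fraction of mouse So, Gpr151 passed in the sagittal (0.00156) and horizontal pairs (0.00385), and with the mouse as a replicate block 6 of 7 genes passed in each of these planes, where 26.6% and 28.2% of probes did. With the fractions of a same number as pairs, 2 passed in the sagittal and 1 in the horizontal plane, against 2.01% and 3.09% of probes.

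Gbx2 had the narrowest profile of the transcription factors. It was highest in fraction 8 of mouse C (-0.95) and fraction 9 of mouse Co (-0.83), with a median over fractions of -2.80 and -3.21 and a lowest level of -6.28 and -6.21 toward the anterior end. Its highest fractions were 5 of mouse S (-1.11), 6 of So (-1.28), 4 of H (-1.42) and 5 of Ho (-1.53), in every mouse the fraction with the highest Slitrk6. Only 2 or 3 fractions a mouse came within 2-fold of the highest. The highest coronal pair, C8 with Co9, was 40.8-fold above the lowest, and the highest horizontal pair at least 44.1-fold above the dorsal pair H1 with Ho2, where Gbx2 was not well above background in either mouse (-8.88 and -8.19).

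A lower, caudal level of Gbx2 lay apart from the main one. Fractions 1, 2 and 3 of mouse C stood at -2.24, -2.80 and -2.30, and fractions 1 to 4 of mouse Co at -2.72, -2.80, -3.26 and -2.50. Between these and the thalamic level the gene fell to -5.92 in fraction 5 of mouse C and to -5.18 in fraction 6 of mouse Co. Both coronal mice thus held 2 separate maxima along the axis, the caudal one well above background in each of these fractions.

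Tcf7l2 had a broader profile that ran caudally from the thalamic fractions. It was highest in fraction 7 of mouse C (1.79) and fraction 9 of mouse Co (1.75), and stayed within 2-fold of that from fraction 4 to 8 in C and 6 to 9 in Co. In mouse C it rose in a single step from -1.02 in fraction 3 to 1.19 in fraction 4 and fell from 1.53 in fraction 8 to -0.76 in fraction 10. The highest pair, C7 with Co8, was 8.54-fold above the lowest. From left to right it formed a plateau, with levels of 1.22, 1.32, 1.59 and 1.14 in fractions 4 to 7 of mouse S and 1.27, 1.24, 1.42 and 0.75 in fractions 4 to 7 of mouse So. Fractions 4 to 6 of each mouse did not differ beyond the SD between paired mice, which was 0.40 for this gene, and the lateral fractions 2 lay at -1.69 and -1.98. Its other 2 probes, which were weaker, followed the brightest with r = 0.98 and r = 0.89 over the 61 arrays and were highest in the same fraction in 6 of 6 mice.

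Lef1, the close relative of Tcf7l2, varied less and did not keep to the thalamic fractions. It varied by 1.51-fold to 2.80-fold within a mouse, and its highest fraction was the anterior end in mouse C (fraction 13, -0.99), a lateral end in So (fraction 1, -1.42) and the dorsal end in Ho (fraction 1, -1.06). In the other 3 mice it was fraction 9 of Co (-0.84), which was also the highest Slitrk6 fraction, fraction 3 of H (-1.16), next to that fraction, and fraction 7 of S (-0.94). The thalamic level was a maximum in both coronal mice, the smaller of 2 in mouse C (-1.49 in fraction 8) and the higher in mouse Co, against -2.43 and -1.84 in the next anterior fraction. At the anterior end Lef1 reached -1.15 and -1.0 in fractions 15 and 16 of mouse Co. Without fraction 13 of mouse C it no longer passed over the coronal pairs (adjusted p = 0.0526). Microglia markers, summed as the mean deviation of 5 genes from their medians, were highest in the same fraction as Lef1 in 3 of 6 mice, at 0.620 in C13, 0.647 in So1 and 1.10 in Ho1, against -0.367 to 0.143 in the thalamic fractions of these mice. In the others they were highest in fraction 15 of Co, in fraction 6 of H and in fraction 1 of S, where Lef1 stood at its lowest of that mouse (-1.55). Endothelial markers too were highest in the same fraction as Lef1 in S7 (0.236), So1 (0.236) and Ho1 (0.198), against up to 0.187 in the thalamic fractions of S. In the other mice they were highest in fraction 16 of Co (0.870), in fraction 6 of H and in fraction 1 of C (0.437), where Lef1 was at -2.32. Their part in the Lef1 level was not tested.

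**Figure D1:**
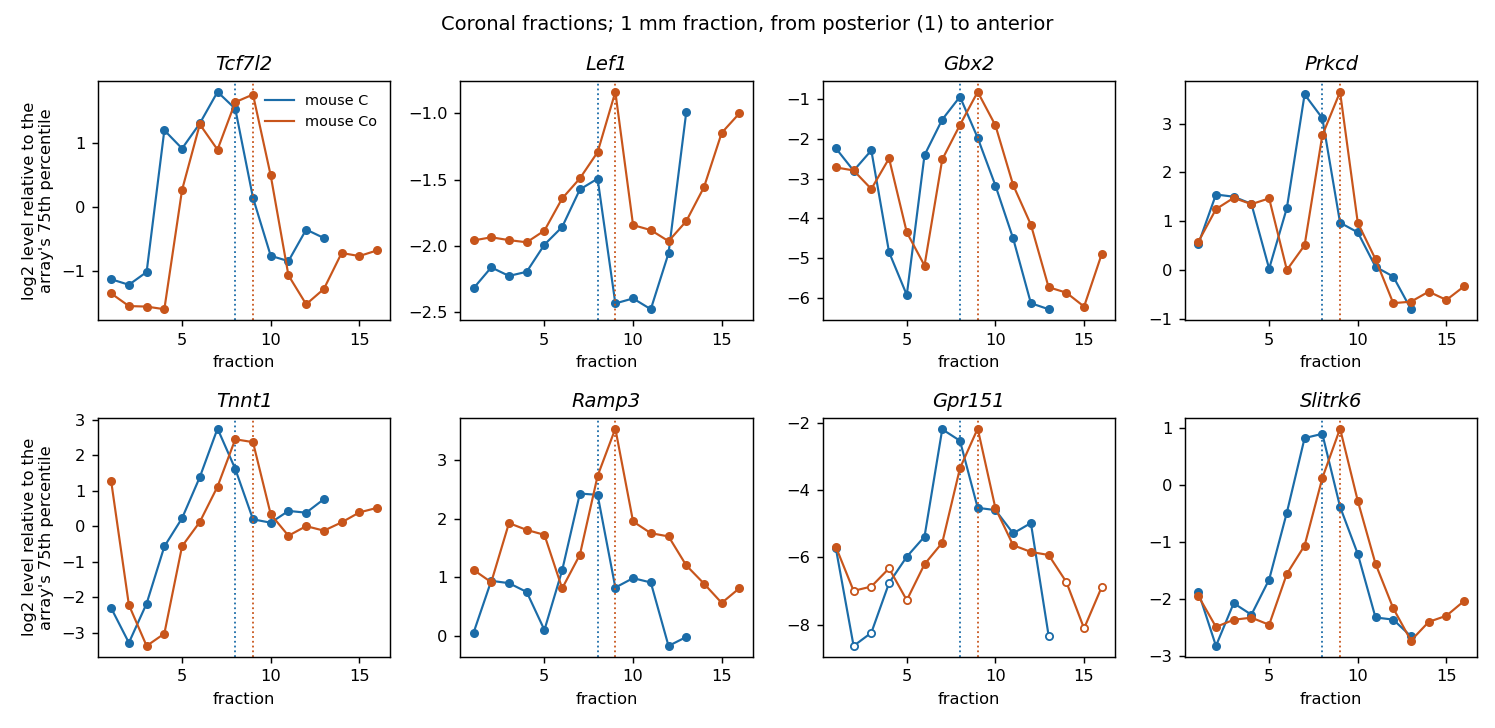
Log2 level relative to the array's 75th percentile (y) of 7 thalamus and habenula genes and of Slitrk6 in the coronal fractions from posterior to anterior (x), in mouse C (blue) and mouse Co (orange); open circles were not well above background and dotted lines mark the highest Slitrk6 fraction of each mouse. All genes but Lef1 in mouse C were highest within 1 fraction of those lines, Gbx2 had a caudal second maximum, and Tnnt1 was at its lowest in fractions 2 and 3.

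Prkcd was highest in fraction 7 of mouse C (3.60) and fraction 9 of mouse Co (3.65), against medians of 0.97 and 0.54. Only fraction 8 came within 2-fold of these in either mouse, and the highest pair was 16.9-fold above the lowest, the anterior end. A caudal shoulder at 1.55, 1.5 and 1.36 in fractions 2 to 4 of mouse C, and at 1.25, 1.48, 1.35 and 1.47 in fractions 2 to 5 of mouse Co, was separated from the thalamic level by a fraction at 0.03 in C (fraction 5) and at 0.01 in Co (fraction 6). Along the dorsoventral axis it was high in adjoining fractions, 2.30 and 2.37 in fractions 3 and 4 of mouse H, with -0.15 dorsal and -0.37 ventral to them. A second Prkcd probe followed the first with r = 0.99 and had the same highest fraction in 5 of 6 mice.

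Ramp3 was also highest in fraction 7 of mouse C (2.43) and 9 of Co (3.54) and lowest toward the anterior end of both mice (-0.17 and 0.56). The highest coronal pair was 6.53-fold above the lowest. In the sagittal mice it varied by only 2.51-fold (S) and 2.24-fold (So), and 6 and 8 fractions there came within 2-fold of the highest. In the horizontal mice it was 2.45 and 2.14 in fractions 3 and 4 of H and 2.39 and 2.37 in fractions 4 and 5 of Ho, and dropped to -0.13 in fraction 5 of H and 0.53 in fraction 7 of Ho.

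Tnnt1 combined a thalamic maximum with a caudal minimum. It was highest in fraction 7 of mouse C (2.75) and fraction 8 of mouse Co (2.45), and lowest in fraction 2 of C (-3.28) and fraction 3 of Co (-3.37), so that the highest pair was 60.8-fold above the lowest. Anterior to the thalamic fractions it settled near the median, between 0.10 and 0.77 in fractions 10 to 13 of C. The most posterior fraction of mouse Co stood at 1.27, whereas fraction 1 of C was at -2.30 and fraction 2 of Co at -2.21. That fraction of Co had no partner in the study's pairs. Skeletal muscle markers were highest in the same fraction among those of mouse Co, at 0.269, against 0.165 to 0.220 in its thalamic fractions. They were also highest in fraction 7 of mouse C (0.243), where Tnnt1 was highest, and in fraction 3 of mouse S (0.654), where it had its left maximum, and otherwise in So1, H5 and Ho1. Of these markers Ckm was well above background on only 3 of 61 arrays. The others all varied over the coronal pairs in the moderated F test, as did 46.9% of probes, so muscle and brain region cannot be told apart in their mean. The part of muscle in the Tnnt1 levels was not tested.

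Gpr151 was within 2-fold of its highest level in the fewest fractions, 7 over the 6 mice, against 13 for Gbx2 and 15 for Tnnt1. It was highest in fraction 7 of C (-2.20), 9 of Co (-2.18), 5 of S (-3.37), 5 of So (-2.08), 3 of H (-2.91) and 4 of Ho (-2.63). In mouse So it stood at -6.02, not well above background, in fraction 4 and at -4.37 in fraction 6 on either side of -2.08. In mouse H it was at -5.86 dorsal and -5.59 ventral to its level of -2.91. The highest coronal pair was at least 18.9-fold above the anterior end, where it was not well above background in either mouse, and the highest horizontal pair was 8.56-fold above the lowest. Its 2 sagittal maxima fell in fractions that the study had not paired, so that each stood beside a dim partner, -4.37 and -7.14, the latter not well above background, in the test over pairs.

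From left to right some genes had a medial maximum and some a maximum on each side. Tnnt1 had levels of 1.84 in fraction 3 and 2.16 in fraction 7 of mouse S with 0.67 in fraction 5 between them, and of 1.59 and 1.62 in fractions 4 and 7 of mouse So with 0.59 and 0.69 between them. Relative to the mean of the highest fraction on either side of it, a choice that lowers the value, the fraction with the highest Slitrk6 was -1.33 and -0.92 for Tnnt1, -0.68 and -0.45 for Prkcd and -0.32 and -0.16 for Ramp3. Gbx2 showed the opposite sign, 0.93 in mouse S and 0.75 in mouse So, as did Slitrk6 (0.39 and 0.38). The others were in neither class, with -0.08 and 0.42 for Tcf7l2, -0.24 and -0.07 for Lef1 and 1.71 and -0.59 for Gpr151, whose highest fraction in So was next to that of Slitrk6. The SD between paired mice was 0.49 for Tnnt1, 0.48 for Prkcd, 0.49 for Ramp3 and 0.80 for Gbx2, so that the lateral maxima of Prkcd and Ramp3 and the medial one of Gbx2 were close to or within that spread. These contrasts were chosen after the profiles had been seen and were not tested.

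**Figure D2:**
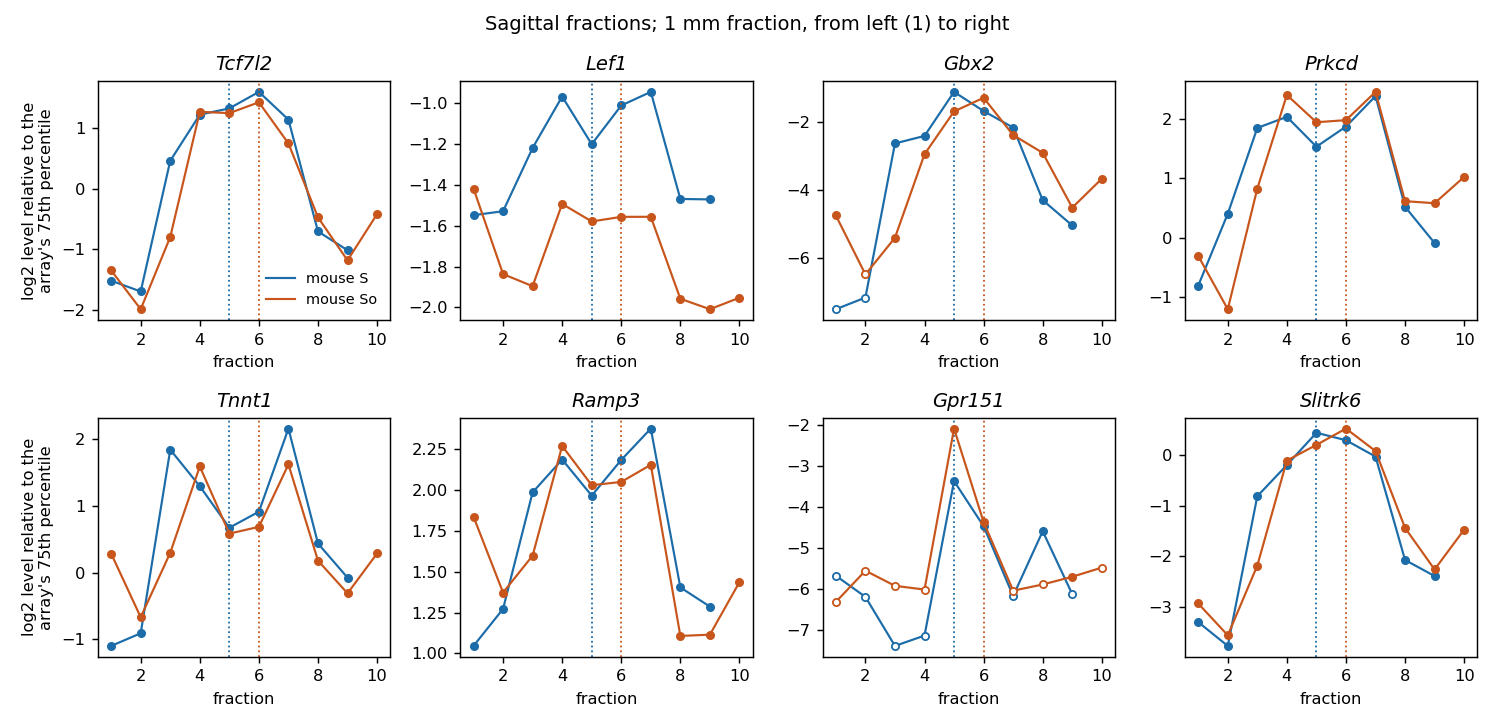
Log2 level relative to the array's 75th percentile (y) in the sagittal fractions from left to right (x) of mouse S (blue) and mouse So (orange), with open circles for values not well above background and dotted lines at the highest Slitrk6 fraction. Tnnt1 and Prkcd had a maximum on each side and Gbx2 a medial one, those of Prkcd and Gbx2 close to or within the SD between paired mice. Gpr151 had a narrow maximum in fraction 5 of both mice, and stood at -4.59 in fraction 8 of S.

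In the dorsoventral direction Gpr151 lay dorsal to Gbx2 in both mice, with the highest fraction at 3 against 4 in mouse H and at 4 against 5 in mouse Ho. Tcf7l2 and Ramp3 were highest in the same fractions as Gpr151, but their next ventral fraction was within the SD between paired mice. Tcf7l2 fell only from 0.93 to 0.62 in H and from 0.92 to 0.81 in Ho (SD 0.40). Ramp3 fell from 2.45 to 2.14 in H and from 2.39 to 2.37 in Ho (SD 0.49). Gbx2 was highest with Slitrk6, and it was not well above background in the dorsal fraction 2 of either mouse or in fraction 1 of H. Its highest levels, -1.42 in H and -1.53 in Ho, were within the SD between paired mice (0.80) of the next dorsal ones, -2.02 and -2.04. Tnnt1 was lowest in fraction 2 of both mice, at -0.66 and -0.38.

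**Figure D3:**
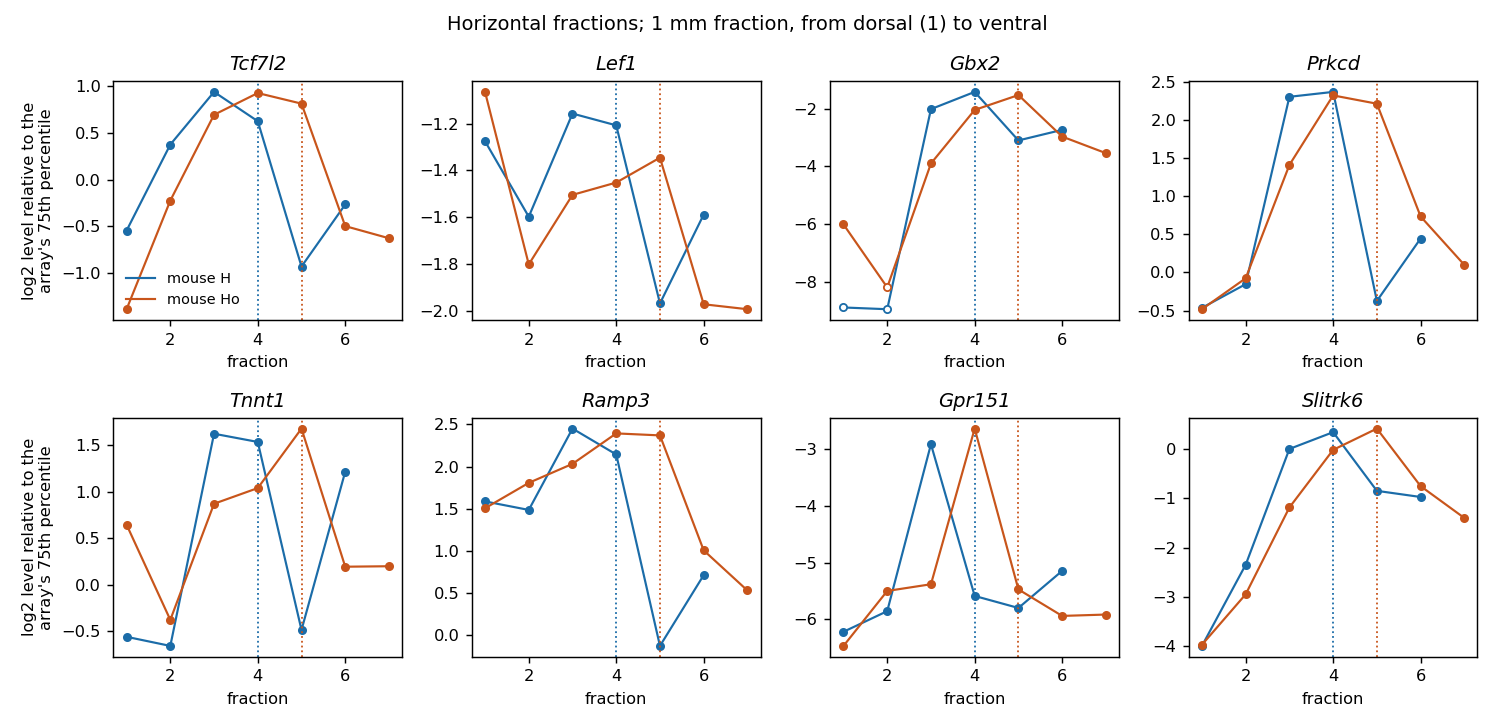
Log2 level relative to the array's 75th percentile (y) in the horizontal fractions from dorsal to ventral (x) of mouse H (blue) and mouse Ho (orange), with open circles for values not well above background and dotted lines at the highest Slitrk6 fraction. Gpr151 had a single high fraction, at 3 in H and 4 in Ho, that lay 1 fraction dorsal to the lines.

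Over the 7 genes and 6 mice, the highest fraction was that of Slitrk6 in 15 of 42 cases and within 1 fraction of it in 34. Within 1 fraction takes in 3 of 6 fractions in mouse H and 3 of 16 in Co, and no share over all genes is given. Of the 8 cases farther away, 4 were of Lef1, 2 of Ramp3, 1 of Prkcd and 1 of Tnnt1. The highest fractions of both mice of a plane were partners in the study's pairs in 7 of 21 combinations, 3 of them from Gbx2. In 10 of the other 14 the offset was 1 fraction, and in the remaining 4, 3 of Lef1 and 1 of Ramp3, it was 3 to 7 fractions. Partner peaks likewise have no share over all genes beside them.

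**Figure D4:**
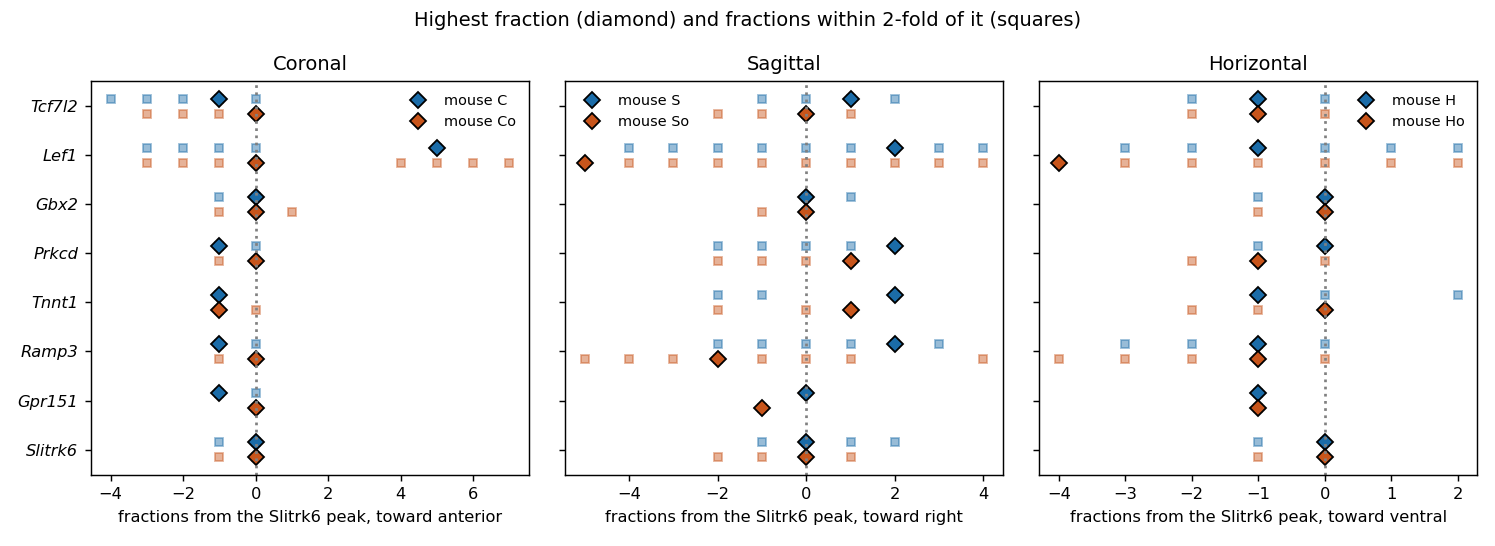
Highest fraction (diamonds) and other fractions within 2-fold of it (squares) for each gene (y), in 1 mm fractions from the highest Slitrk6 fraction of the same mouse (x), for the straight (blue) and oblique (orange) mouse of each plane. Gpr151 and Gbx2 occupied 1 to 3 fractions near 0, Tcf7l2 reached caudally, and Lef1 spread over the axis.

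The levels were next compared between the thalamic fractions of each mouse, the highest Slitrk6 fraction and its direct neighbours, and all its other fractions, with the mouse as the unit. All 7 genes had a higher mean in the thalamic fractions in 6 of 6 mice, though Lef1 by only 0.04 in H and 0.001 in Ho. No share over all probes is given for this count. Gbx2 was 3.14 ± 0.28 higher on the log2 scale (mean ± SE, n = 6, adjusted p = 0.00735) and Prkcd 1.63 ± 0.13 (adjusted p = 0.00668), and these 2 of 7 passed limma's moderated test, in which 1.40% of the 35969 probes were higher and 0.156% lower. Tcf7l2 came to 1.39 ± 0.24 (adjusted p = 0.0505), Gpr151 to 1.87 ± 0.38 (0.0710), Tnnt1 to 1.17 ± 0.26 (0.0911), Ramp3 to 0.76 ± 0.18 (0.108) and Lef1 to 0.20 ± 0.07 (0.195). The sizes of Gbx2 and Gpr151 changed with how signal near background was treated, being 2.74 and 1.70 with dim values set to the lowest signal well above background and 1.69 and 0.79 with normexp and quantile normalization, and Gbx2 passed in both. With the dim values so set, 4 of 7 genes passed, Tcf7l2 (0.0397) and Gpr151 (0.0386) added, against 1.31% of probes. Within slides, where only arrays of the same glass slide were compared, none of the 7 passed, against 0.133% of probes, Gbx2 being at 2.21 (0.0755) and Prkcd at 1.44 (0.0951), though all 7 were higher at an unadjusted p under 0.05, as were 10.1% of probes. Gbx2 missed the threshold where the thalamus was located by 14 other thalamic genes, Slitrk6 included (0.0598), Prkcd where the highest Slitrk6 fraction was used alone (0.0684), and Tcf7l2 ran from 0.0326 to 0.145 over the alternatives.

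The mouse values show how the difference rests on the plane. Gpr151 was 3.30 and 3.11 higher in mice C and Co, 1.04 and 1.68 in S and So, and 0.97 and 1.13 in H and Ho. Tnnt1 was 2.02 and 2.18 higher in the coronal mice and between 0.57 and 0.89 in the other 4. Ramp3 was 1.33 and 1.47 higher in the coronal mice and between 0.23 and 0.55 in the others, whereas Tcf7l2 was 1.39 to 2.03 higher in the coronal and sagittal mice and 0.36 and 0.80 in the horizontal ones. The thalamic fractions of mouse H were 3 to 5, and fraction 5 held its lowest Tcf7l2 (-0.93), Ramp3 (-0.13) and Lef1 (-1.97). The other members in H, and all members in Ho, were lowest outside the thalamic fractions. Gbx2 had its largest value, 4.67, in mouse H, or 3.31 with dim values set to the lowest signal well above background. A test of the plane over the 6 differences, added after these values had been seen, called 4 of 7 genes, Tnnt1 (adjusted p = 0.00832), Ramp3 (0.0116), Gpr151 (0.0125) and Tcf7l2 (0.0484), against 21.7% of probes. Without mouse C it called none of the 7, against 1.81% of probes, with 5 at an unadjusted p under 0.05, against 29.2%. Without mouse Co it called none, against 3.42%, with 4 at an unadjusted p under 0.05, against 29.9%. Within slides it called none of the 7 and no other probe, with 2 at an unadjusted p under 0.05, against 18.1%. With dim values set to the lowest signal well above background it called 6, Gbx2 and Prkcd added, and 26.7% of probes.

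**Figure D5:**
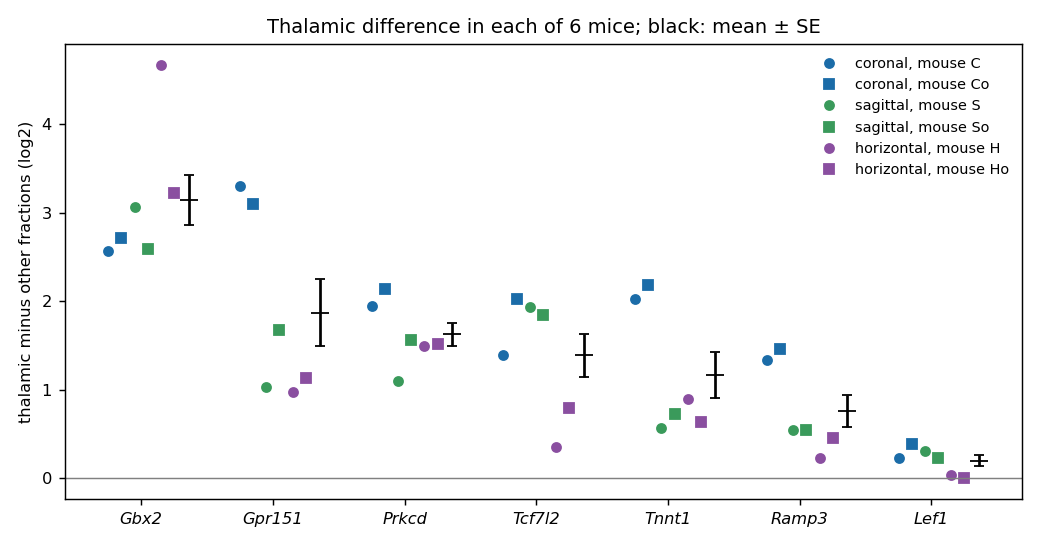
Mean log2 level of the thalamic fractions minus that of the other fractions (y) for each gene (x) in each of 6 mice (circles for straight, squares for oblique series, coloured by plane), with the mean and its SE in black. All values were above 0, though those of Lef1 in H and Ho were close to it, and the coronal mice were highest for Gpr151, Tnnt1 and Ramp3.

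The mice of a plane differed in level over their pairs for 2 of 7 genes, Lef1 (adjusted p = 1.21e-07) and Ramp3 (3.65e-06), where 63.0% of probes did. Lef1 was 0.37 higher in Co than in C, and lower by 0.50 in So than in S and by 0.21 in Ho than in H, on the log2 scale. Ramp3 was 0.81 higher in Co than in C. Mouse and scan day cannot be told apart in the coronal plane, since C and Co were scanned on different days.

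The genes most like each member over the 61 arrays were found among 13529 genes well above background on at least 10 arrays, as a description, since neighbouring fractions of a brain are not independent and share a slide. For Tcf7l2 they were Lhx9 (r = 0.88), Slitrk6 (0.81) and Rgs16 (0.77), for Gbx2 Cckar (0.83), Slitrk6 (0.82) and Calcr (0.80), and for Prkcd Wnt9b (0.88), Vav3 (0.83) and Slitrk6 (0.79). Tnnt1 was most like Zap70 (0.81), Kcnc2 (0.73) and Dusp27 (0.72), and Gpr151 most like Zap70 (0.68), Bhlhe23 (0.67) and Pkp2 (0.66). Ramp3 was most like Galnt17 (0.72), Prkcd (0.71) and Rgs16 (0.70), and Lef1 most like Adarb1 (0.74), Pde4d (0.72) and Srek1ip1 (0.71). The likeness differed by plane for some of these, with r between Ramp3 and Galnt17 at 0.84 in the coronal and -0.24 in the sagittal arrays, and between Gpr151 and Pkp2 at 0.85 and -0.23. Averaged over the 7 members, Slitrk6 (mean r = 0.64) and Rgs16 (0.64) came first, before Zap70 (0.58), Sec14l4 (0.58) and Tafa4 (0.57). Among the members, Gbx2 and Prkcd were most alike (r = 0.77), and Gbx2 and Lef1 least (0.05).

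Of 14 other genes known from the thalamus, Slitrk6 had placed the fractions. Of the remaining 13, 6 were higher in the thalamic fractions, Shox2 and Rgs16 among them, with a median difference of 0.39, against a median of -0.01 over all probes. In this test 1.40% of all probes were higher. The largest was that of the homeobox gene Shox2, 2.16 ± 0.21 (adjusted p = 0.00819), and the smallest that of the LIM homeobox gene Lhx2, -0.03 ± 0.50. Of 14 other genes known from the habenula, 2 were higher, with a median of 0.59 and with Slc5a7, the choline transporter (1.60 ± 0.46, adjusted p = 0.155), and Nr4a2, a nuclear receptor (-0.12 ± 0.32), at the ends. These habenula genes were highest in the same fraction as Gpr151 in 20 of 84 combinations of gene and mouse, most often Chrna3, a nicotinic receptor subunit, and Gng8, a G protein subunit, in 4 of 6 mice each. Their r with Gpr151 over the arrays ran from -0.16 to 0.57, with a median of 0.21. The 14 thalamic genes were highest with Gpr151 in 15 of 84 combinations, and their r ran from -0.31 to 0.63, with a median of 0.36. No share over all genes is given for these shared peaks.

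Of 26 genes of Wnt signalling, the pathway of Tcf7l2 and Lef1, 1 was higher, against 1.40% of all probes, and the median was -0.02. The gene that passed was Fzd10, a Frizzled receptor, at 0.57 ± 0.08 (adjusted p = 0.0290). The ends of the list were Wnt3, a ligand, at 0.69 ± 0.16 (0.102) and Sp5, a target gene, at -0.36 ± 0.46 (0.742). Of 20 relatives and partners of the members, 4 were higher, Calcr, the kinase C isoforms Prkch and Prkcq and the homeobox gene Gbx1, and 1 was lower, the fast troponin I gene Tnni2, with a median of -0.06. The largest was that of Calcr, the calcitonin receptor that Ramp proteins bind, at 3.09 ± 0.26 (adjusted p = 0.00711), and the smallest that of the troponin C gene Tnnc2 at -0.68 ± 0.28 (0.271). Of markers of other regions, 2 of 7 hypothalamic, 1 of 5 dopaminergic midbrain, 1 of 5 hippocampal and 2 of 5 choroid plexus markers were higher, with medians of 2.48, 1.42, 0.36 and 1.47. Of the 6 skeletal muscle markers 1, Mb, was higher. In the limma test 0 of the 6 striatal, 6 cerebellar, 7 endothelial, 5 microglial and 6 smooth muscle markers were higher, with medians of 0.88, -0.59, -0.19, -0.16 and -0.06. At an unadjusted p under 0.05, 3 of the striatal and 0 of the others were higher, against 9.53% of probes.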

How the data were processed

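RNA of each of 61 brain fractions (200 slices of 5 µm, 1 mm) was labelled with Cy3 and hybridised to a 1-colour Agilent whole mouse genome array. The deposited intensity values are processed signals that the authors extracted with Agilent Feature Extraction (9.1.3.1 per the file headers); the authors' own table of normalized intensity was used as an alternative. The label of 1 S fraction names another set in 1 field and was kept with its title, and S fractions were renumbered from 1. Outlier spots were left out, spots of a probe were averaged, and log2 levels were set against the 75th percentile of the array. Probes were named through RefSeq (22944 of 41174). Probes with a missing value (604) were dropped, and 35969 detected on at least 1 array were tested. Moderated F tests over 28 pairs (27 and 28 degrees of freedom before moderation), moderated tests over 6 mouse differences and F tests between mice were run in limma 3.58.1 (R 4.3.3) with Benjamini-Hochberg adjustment over all tested probes and a threshold of 0.05, after tests on simulated data. The lowest fold bound for dim values sets the dim arrays at the lowest signal well above background. The number of arrays and mice limits the precision. The alternatives were other scalings, normexp (offset 50) with quantile normalization, other filters, a floor, the next probe, mouse, slide and scan day blocks, other pairings, one-way ANOVA, other thalamic fractions and dropping arrays or mice 1 at a time. The members, gene lists and tests were chosen with earlier results of these data known. Named genes were the members, the 3 most similar to each and the 5 most similar on average, and the ends of related lists; lists of other regions and cell types are given as counts.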

Additional observations from a re-analysis of the deposited data

Results flagged for a closer look

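The thalamic difference of Gbx2 in mouse H, 4.67 on the log2 scale, lay far from those of the other 5 mice, which ran from 2.57 to 3.23. Its gap to the nearest was 0.689 of the whole range, above the critical ratio of 0.625 for 6 values. Chance gives such a gap in about 1 of 20 groups, and 7 genes were checked. Gbx2 was not well above background in fractions 1 and 2 of that mouse, so 4.67 is no measured size. With dim values set to the lowest signal well above background the mouse stood at 3.31, the other 5 ran from 2.43 to 2.96, and the gap was 0.397 of the range, below the critical ratio. Without the mouse the difference was 2.84 (adjusted p = 0.00523).

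The thalamic differences of 4 members differed between planes in a test of that difference over 6 mice, with adjusted p of 0.0484 for Tcf7l2, 0.00832 for Tnnt1, 0.0116 for Ramp3 and 0.0125 for Gpr151. It called 21.7% of all probes and was added after the values had been seen. Leaving out mouse C or mouse Co left none of these calls.

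For 3 other named genes the mice of different planes went in opposite directions, which was not tested. Lhx2 was 1.80 higher in the thalamic fractions of the coronal mice, with values of -1.0 in the sagittal and -0.88 in the horizontal mice. Nr4a2 stood at 0.75 in the coronal and at -1.19 in the sagittal mice. Sp5 stood at 1.04 in the sagittal, -1.86 in the coronal and -0.28 in the horizontal mice.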

How the results depend on the processing

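Over 2597 recomputed values of single members, 38 lost and 28 gained a call. None reversed in sign, but only the thalamic differences of Gbx2 and Prkcd could have, since F values have no sign. The number of members higher in the thalamic fractions was 2, and 4 with dim values set to the lowest signal well above background, 0 within slides (7 at an unadjusted p under 0.05 in limma), and 2 to 3 when each mouse was left out. In the first 3 of these settings 1.40%, 1.31% and 0.133% of all probes were higher, and no share is given for the last. The number with a thalamic difference that differed between planes was 4, against 21.7% of probes. It was 6 with dim values set to the lowest signal well above background, against 26.7%. It was 2 with the fractions located by other thalamic genes, for which no share over all probes is given. Within slides it was 0, and no probe was called. Leaving out a mouse leaves 1 in its plane, and without C or Co the calls were lost. With fractions of the same number as pairs, 2 members varied over the sagittal and 1 over the horizontal pairs instead of 4 and 5. Over all probes 2.01% and 3.09% did, instead of 11.0% and 11.9%. The cause was not tested. When each array was left out, 7 varied over all pairs, 6 to 7 over the coronal, 4 to 5 over the sagittal and 5 to 6 over the horizontal pairs, and 2 differed between mice. No share over all probes is given for these fits. With no array left out, 61.1% of probes varied over all and 46.9% over the coronal pairs, and 63.0% differed between mice.

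With the mouse as a replicate block, 7 members varied over all and 7 over the coronal pairs, 6 over the sagittal (Lef1 and Ramp3 added) and 6 over the horizontal ones (Lef1 added). Over the sagittal and horizontal pairs 26.6% and 28.2% of probes did so, and for the other counts no share is given. Arrays of 1 mouse deviated together from the pair means, with a median r of 0.28 over 129 pairs of arrays, 114 of them above 0.1. With the slide as a fixed block, Gpr151 lost its call in the coronal plane (adjusted p = 0.0562) and Tnnt1 in the sagittal (0.0515) and horizontal planes (0.133). Dim signal limited Gpr151 and Gbx2, which have only bounds where they were not well above background.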
